A study of Mus musculus with 2 samples.

Results

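The Il10 family cytokine cluster of the mouse holds the genes Il24, Il20, Il19 and Il10 next to each other on chromosome 1. It was taken as the 230 kb from 132740000 to 132970000 of mm9, an interval set by position and not by read values. All 4 genes lie in it, with 26 of the 86149 sites that chromatin immunoprecipitation sequencing of STAT3 and STAT5 gave over the genome. Both libraries came from wild type C57BL/6J T helper 17 (Th17) cells, made from sorted naive CD4 T cells of spleen and lymph nodes by 3 days of culture with TGF-beta (2 ng/ml), IL-6 (20 ng/ml) and antibodies to CD3 and CD28. An antibody to IL-4 was present too, and the labels name one to IL-2 but give its amount in the unit of the cytokine, so it is unclear which of these was added. The STAT3 library was made with a STAT3 antibody after 30 minutes of IL-6 at 40 ng/ml, and the STAT5 library with a mixture of STAT5a and STAT5b antibodies after 30 minutes of IL-2 at 200 IU/ml. There was 1 library of each kind, and neither an input nor an IgG library was analysed here. Antibody and cytokine differed together and cannot be told apart, and no RNA was measured.

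The 4 genes encode secreted cytokines of the IL-10 family. IL-10 restrains inflammation: it binds a receptor of IL-10RA and IL-10RB chains and signals through STAT3, and Th17 cells grown with IL-6 and TGF-beta are known to make it. IL-19, IL-20 and IL-24 share receptors built on the IL-20RB chain and act mainly on epithelial cells, with IL-24 also known from Th2 cells. STAT3 becomes active downstream of IL-6 and STAT5 downstream of IL-2, and dimers of either bind DNA at sequences of the form TTCNNNGAA. Sequence elements on both sides of Il10 and within it are known to take part in its control in T cells and macrophages. In the RefSeq gene order of GRCm38.p6 the cluster runs Fcmr, Il24, Il20, Il19, the long non-coding gene Gm41952, Il10 and Mapkapk2, the last a kinase gene. The gene positions used on mm9 are rounded: Il24 at about 132.78 Mb, Il20 at about 132.8 Mb, Il19 at about 132.83 Mb and Il10 from 132.916 to 132.922 Mb. Distances below are from the Il10 position of 132.916 Mb, rounded to 1 kb. The other positions are rounded to 10 kb, so exon, intron or promoter cannot be assigned to a site. Nearest gene below means the nearest of these 4 positions. Fcmr, Gm41952 and Mapkapk2 were not placed on mm9, so a site may lie nearer to or within one of them.

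Promoter sequences show what STAT-type motifs the gene starts hold. The promoters of Il20 and Il19 are given because only these 2 of the 4 genes had a promoter in the reference used. They come from RefSeq on GRCm38.p6 (minus strand, 250 bases before the start site to 50 after it; Il20 at chr1:130911247-130911546 and Il19 at chr1:130940066-130940365). Capitals mark a match to TTCNNNGAA or to its wider form TTCNNNNGAA, each of which reads the same on both strands.
Il20: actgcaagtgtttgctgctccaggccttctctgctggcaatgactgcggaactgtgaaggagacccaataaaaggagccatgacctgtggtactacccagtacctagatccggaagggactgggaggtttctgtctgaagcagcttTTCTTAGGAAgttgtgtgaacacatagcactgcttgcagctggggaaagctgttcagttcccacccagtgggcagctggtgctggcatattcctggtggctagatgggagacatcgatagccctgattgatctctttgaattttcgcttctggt
Il19: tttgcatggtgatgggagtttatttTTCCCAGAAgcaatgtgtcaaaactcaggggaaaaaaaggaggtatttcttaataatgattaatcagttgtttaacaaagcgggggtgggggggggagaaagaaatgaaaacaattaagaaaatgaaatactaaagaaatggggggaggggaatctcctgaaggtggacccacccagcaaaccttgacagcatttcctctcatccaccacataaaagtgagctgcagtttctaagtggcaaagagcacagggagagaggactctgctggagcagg
The Il19 promoter held TTCCCAGAA, a TTCNNNGAA match, from 225 to 217 bases before the start site. Such a match stood in 8.3% of the 32851 RefSeq promoters of this length. The Il20 promoter held TTCTTAGGAA, a TTCNNNNGAA match, from 104 to 95 bases before the start site, and 6.95% of the promoters held this form. These matches are letters in a window, not measured binding.

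The libraries held 20784388 STAT3 reads and 17963766 STAT5 reads on nuclear chromosomes, none of them repeated at the same position and strand. In the cluster there were 4996 STAT3 and 6607 STAT5 fragment centres. Read counts below are centres in 200 bp, where at most 400 combinations of position and strand exist, and RPM is reads scaled to 1000000 nuclear reads. Intervals are exact 95% intervals and cover counting error only. The exception is ratios corrected for combinations already taken, whose limits are the exact ones multiplied by the same factor as the ratio. Those limits are approximate and leave out the error of the correction. A region is a run of 200 bp windows with at least 5 reads and at least 4-fold over the local mean at an adjusted Poisson p of 1e-05 or below. Of all windows with a read, 0.862% were called for STAT3 and 1.5% for STAT5. Without a control library, a region is a place with more reads than its surroundings, whatever the reason.

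STAT3 and STAT5 reads piled up at many places around Il10 and at few places around Il19. The cluster held 18 STAT3 and 22 STAT5 regions, which merged into 26 sites. Of these, 14 (53.8%) had a region of both antibodies, 4 of STAT3 only and 8 of STAT5 only, where 47.7% of all sites in the genome had both. Here only means that no region of the other antibody passed the call, not that its reads were absent. The 4 sites of STAT3 only held 17, 14, 46 and 34 STAT3 reads against 27, 7, 57 and 39 STAT5 reads. As shares of each list, 77.8% of the STAT3 regions and 63.6% of the STAT5 regions of the cluster overlapped the other, beside 72.4% and 58.4% in the genome. The median region of the cluster had 55 STAT3 or 95 STAT5 reads at its tallest window, and the genome medians were 40 and 38. Equal tiles of 230000 bp held a median of 4 sites over the genome (quartiles 0 and 14), and 658 of 11135 tiles with reads (5.91%) held 26 or more. The sites were unevenly placed: 17 lay in the stretch of 97 kb nearest to Il10, 5 nearest to Il24, 2 nearest to Il20 and 2 nearest to Il19. The stretches differ in length. Per 100 kb there were 17.5 sites for Il10, 10.0 for Il24, 8 for Il20 and 3.45 for Il19, beside 3.65 in the genome.

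**Figure D1:**
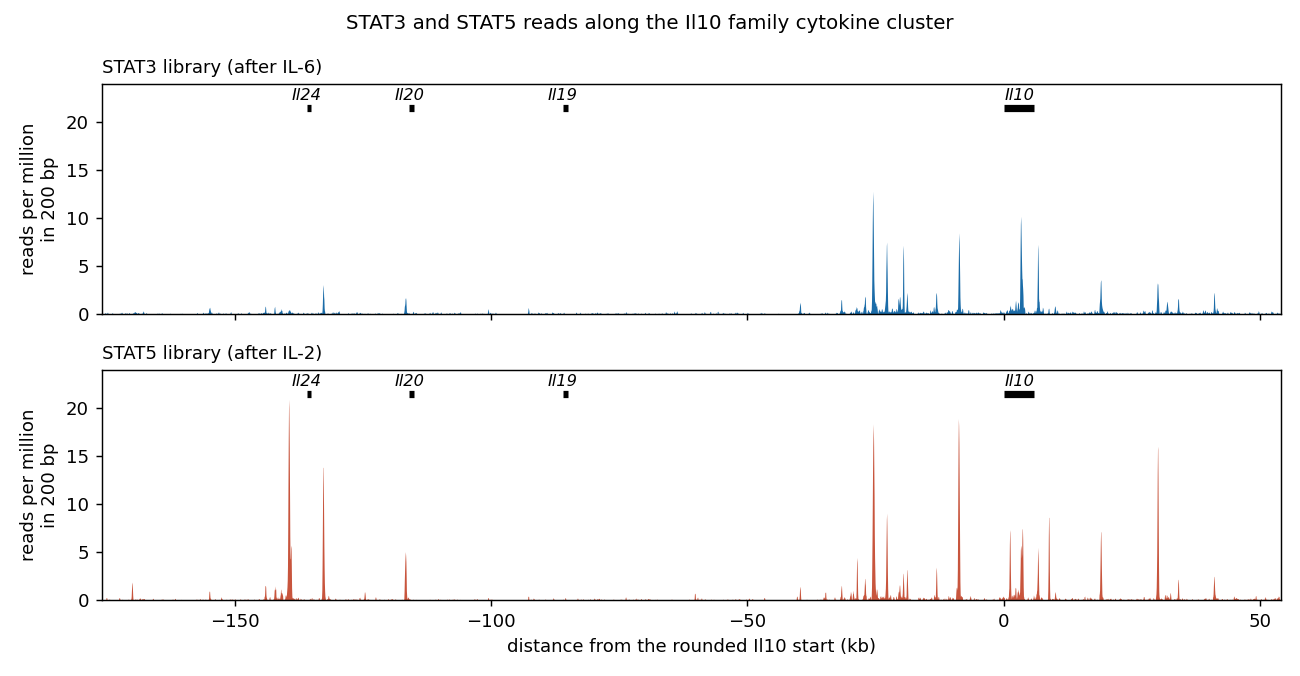
RPM in windows of 200 bp (vertical axis) against distance from the rounded Il10 start in kb (horizontal axis), for the STAT3 library above and the STAT5 library below, with black bars at the rounded gene positions. Tall peaks gather around Il10 in both libraries, the tallest window near Il24 reaches 20.9 RPM with STAT5 and the tallest there with STAT3 3.08 RPM, and the stretch of Il19 is nearly flat.

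The balance of the antibodies leaned to STAT5. The ratio of RPM, STAT3 over STAT5, was below 1 at 22 of the 26 sites and above 1 at 4. Most sites of the genome were below 1 too, with a median ratio of 0.740, and their exact share is not given here. An interval wholly beyond 2-fold was required to call a site. By this rule 11 sites (42.3%) were higher with STAT5, where 27.7% of all sites were, and 0 were higher with STAT3, where 3.18% of all sites were. These shares are not matched for read number, and a site with more reads has a narrower interval and is called more readily. The interval lay wholly below a ratio of 1 at 13 sites (43.8% of all sites did so) and wholly above it at 3, 11.5% of the sites, against 17.5% in the genome. Scaling to bins without a region multiplied every ratio, in the cluster and elsewhere, by 0.723. These numbers were then 20 below and 2 above, and the shares of all sites under that scaling were not computed. The median site had 34.5 STAT3 and 68.5 STAT5 reads, a median ratio of 0.517, beside 25 and 31 reads and a median ratio of 0.740 over all sites.

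**Figure D2:**
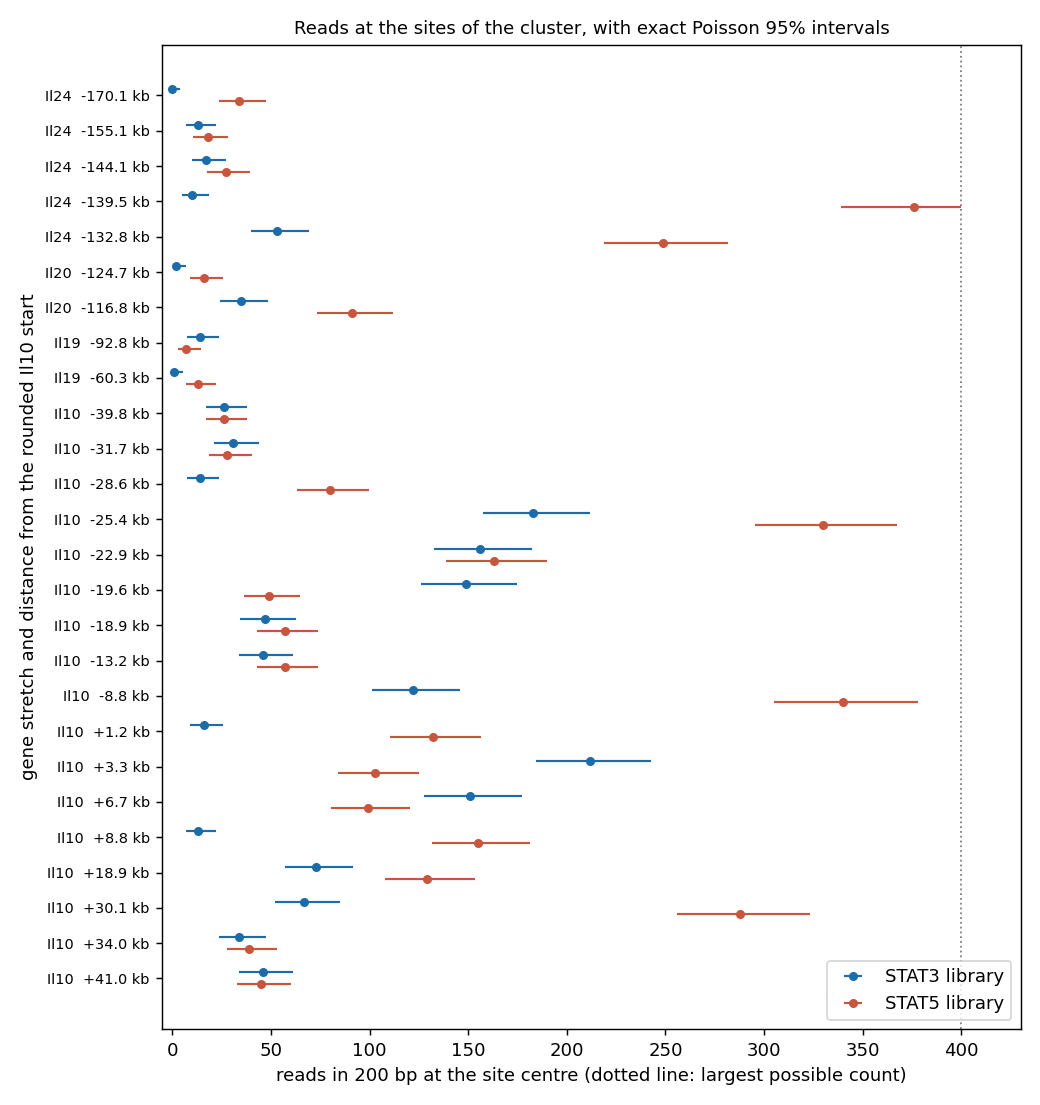
Reads in 200 bp at the centre of each of the 26 sites (horizontal axis), STAT3 above STAT5 in each row, with exact Poisson 95% intervals held at the largest possible count of 400. Rows run along the chromosome and give the nearest of the 4 genes and the distance from the rounded Il10 start. STAT5 counts reach 376 near Il24 and 340 near Il10, STAT3 counts reach 53 near Il24 and 212 near Il10.

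**Figure D3:**
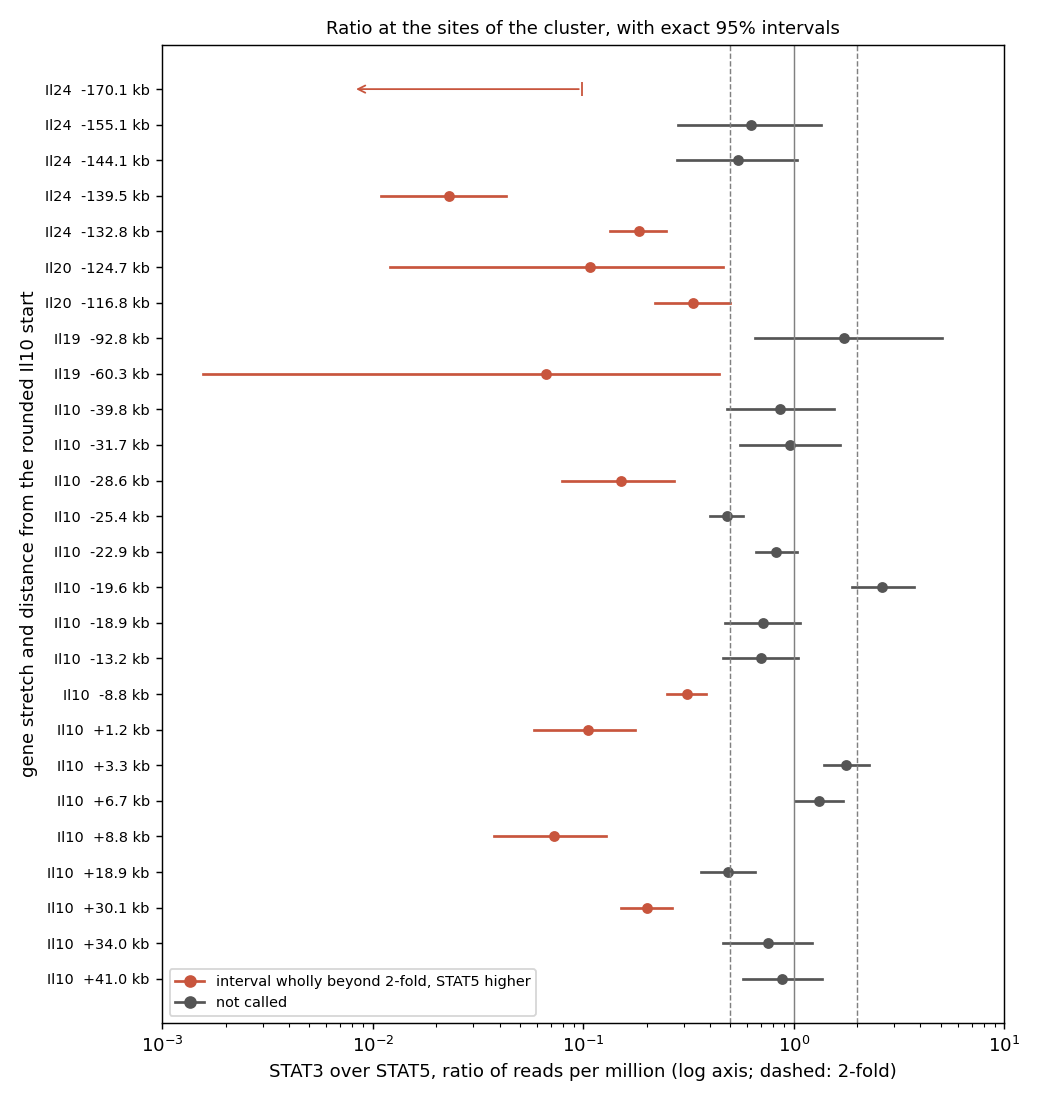
Ratio of RPM, STAT3 over STAT5, on a log axis at each of the 26 sites in the same order, with exact 95% intervals and dashed lines at 2-fold. The 11 sites in red lie wholly below the lower line and none lies wholly above the upper line; the arrow is a site with 0 STAT3 reads.

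Near Il24, 3 of 5 sites were called higher with STAT5, where 27.7% of all sites were, and 5 sites are too few for a share. The tallest STAT5 site of the cluster, on chromosome 1 from 132776251 to 132776750, had 10 STAT3 reads and 376 STAT5 reads, or 0.481 and 20.9 RPM. Its ratio was 0.0230 (0.0109 to 0.0427), and its STAT5 count was above that of 99.4% of the STAT5 regions of the genome. With 376 of 400 combinations taken, the STAT5 level is capped and the ratio is compressed; with the correction for positions already taken, which turns a count n of 400 into the number of reads expected to fill n combinations, it was 0.00778 (0.00370 to 0.0145). The site from 132782951 to 132783450 was a region of both antibodies, with 53 STAT3 reads and 249 STAT5 reads, and its ratio was 0.184 (0.134 to 0.248). These tall STAT5 sites lay 6.65 kb apart on either side of the rounded Il24 position. Past the end of the taller one, and before 132777150, STAT5 fell and then rose again to 5.73 RPM in 200 bp. STAT3 there stayed below the 0.481 RPM of that site. This further rise formed no region under the main rule. With the genome-wide mean alone, the rise and the site fell in the same STAT5 region, from 132775951 to 132777150.

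The 3 smaller sites were the remaining sites of the Il24 stretch. The site from 132745701 to 132746100 had 0 STAT3 reads and 34 STAT5 reads, at least 13.1-fold lower with STAT3 against a floor of 3 reads in that library; the exact interval of the ratio allows less, with an upper end of 0.0990, and in 400 bp, with 2 STAT3 reads, the ratio was 0.0443 (0.00518 to 0.171). The site from 132771801 to 132772050 was a STAT3 region with 17 STAT3 reads, yet had more STAT5 reads, 27, and a ratio of 0.544 (0.278 to 1.04). No STAT5 region was called there against the local mean, and with the genome-wide mean alone one was, from 132771701 to 132772100 with 28 reads. The site from 132760851 to 132761150 had 13 STAT3 reads and 18 STAT5 reads and a ratio of 0.624 (0.281 to 1.35). Summed over the sites of the stretch, 144 STAT3 reads and 1067 STAT5 reads gave a ratio of 0.117 (0.0973 to 0.139). This was far below the 0.596 (0.564 to 0.629) of the Il10 stretch, and the intervals did not overlap. Such intervals cover counting error and not the spread between sites. Most of these STAT5 reads came from the tall STAT5 sites described above, and single sites of the Il10 stretch had ratios from 0.0725 to 2.63.

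Near Il20 there was 1 clear site. It lay from 132798951 to 132799500, by the rounded position of the gene, and was a region of both antibodies with 35 STAT3 reads and 91 STAT5 reads. The ratio was 0.332 (0.218 to 0.496), and the upper end of its interval was just beyond 2-fold. A faint STAT5 region from 132791151 to 132791450 had 2 STAT3 reads and 16 STAT5 reads and a ratio of 0.108 (0.0121 to 0.460).

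The Il19 stretch, 58 kb long, was the emptiest of the cluster. Its tallest windows had 14 STAT3 reads and 13 STAT5 reads, in different places. The STAT3 region from 132823101 to 132823350 had 14 STAT3 reads and 7 STAT5 reads, a ratio of 1.73 (0.653 to 5.06), and was not called for either antibody. The STAT5 region from 132855551 to 132855850 had 1 STAT3 read and 13 STAT5 reads, a ratio of 0.0665 (0.00156 to 0.443). It was called higher with STAT5 in 200 bp but not in 400 bp, where 4 STAT3 reads and 15 STAT5 reads gave 0.230 (0.0557 to 0.723). Over the whole stretch, reads numbered 5.52 per kb with STAT3 and 3.76 per kb with STAT5, below the genome means of 8.81 and 7.61. In 5 of its 58 kb there was no read of either library, and whether reads can be placed there was not tested.

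Around Il10 the sites were close together, and 6 of 17 had 100 or more STAT3 reads and 8 had 100 or more STAT5 reads. The 17 sites lay a median of 3650 bp from the next, beside 8200 bp over the genome. They had a median of 47 STAT3 reads and 99 STAT5 reads. Of the reads in the sites of the cluster, this stretch held 90.8% of STAT3 and 71.5% of STAT5. By the rounded gene position, 9 sites lay before Il10, 2 within it and 6 after it, on the side of Mapkapk2. Of these 17 sites, 11 (64.7%) had a region of both antibodies, where 47.7% of all sites had, and 5 (29.4%) were called higher with STAT5, close to the 27.7% of all sites.

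Before Il10, a group of sites stood between 31.7 and 18.9 kb from its start, and a single tall site stood 8.8 kb from it. The site at 25.4 kb, from 132890201 to 132890800, had the most reads of the cluster, 183 STAT3 and 330 STAT5 at its common centre. Its ratio was 0.479 (0.398 to 0.576), so that the interval reached past the 2-fold limit and the site was not called. With the correction for positions taken the ratio was 0.303 (0.252 to 0.364), and the site was then called higher with STAT5. The STAT3 reads alone peaked 100 bp nearer to Il24, where there were 266 STAT3 reads and 287 STAT5 reads, the tallest STAT3 window of the cluster. In that window the ratio was 0.801 (0.675 to 0.950). With each library's own tallest window it was 0.697 (0.591 to 0.821), and in 400 bp 0.552 (0.480 to 0.633). The site at 8.8 kb, from 132906901 to 132907500, had 122 STAT3 reads and 340 STAT5 reads and was called higher with STAT5, with a ratio of 0.310 (0.250 to 0.382). In its own tallest window STAT3 had 176 reads, and set against the STAT5 maximum of 340 the ratio was 0.447 (0.371 to 0.538), no longer wholly beyond 2-fold. With the correction for positions taken at the common centre it was 0.166 (0.134 to 0.204).

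The neighbours of the site at 25.4 kb differed in their balance. At 28.6 kb, from 132887251 to 132887450, there were 14 STAT3 reads and 80 STAT5 reads and the ratio was 0.151 (0.0791 to 0.269), or 0.228 (0.138 to 0.365) in 400 bp. At 22.9 kb the levels were close, with 156 STAT3 reads and 163 STAT5 reads and a ratio of 0.827 (0.66 to 1.04). At 19.6 kb, from 132896201 to 132896550, STAT3 had more reads, 149 against 49 for STAT5. That ratio of 2.63 (1.89 to 3.71) was the highest of the cluster, and its interval began just inside 2-fold. With the correction for positions taken it was 3.08 (2.22 to 4.35), wholly beyond 2-fold, and under scaling to bins without a region it was 1.90 (1.37 to 2.68). Only 0.7 kb further towards Il10, at 18.9 kb, there were 47 STAT3 reads and 57 STAT5 reads and the ratio was 0.713 (0.474 to 1.07). The other sites on this side, at 39.8, 31.7 and 13.2 kb, held 26, 31 and 46 STAT3 reads against 26, 28 and 57 STAT5 reads, and none was called.

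Within and just after the rounded Il10 gene, 4 sites in 7.55 kb differed in their balance, with the outer pair called higher with STAT5 and the inner pair not called. The first, 1.2 kb past the start, from 132917001 to 132917300, had 16 STAT3 reads and 132 STAT5 reads and was called higher with STAT5 (ratio 0.105, 0.0582 to 0.177). The second, 3.3 kb past the start, from 132919101 to 132919800, had 212 STAT3 reads and 103 STAT5 reads at its centre, the highest STAT3 count at a site centre in the cluster. Its ratio was 1.78 (1.40 to 2.27), wholly above 1 but not beyond 2-fold. The third, 6.7 kb past the start, had 151 STAT3 reads and 99 STAT5 reads, a ratio of 1.32 (1.02 to 1.72) that turned to 0.953 (0.735 to 1.24) when the libraries were scaled to reads in bins without a region. The fourth, 8.8 kb past the start, from 132924601 to 132925000, had 13 STAT3 reads and 155 STAT5 reads and was called higher with STAT5 (ratio 0.0725, 0.0377 to 0.128).

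**Figure D4:**
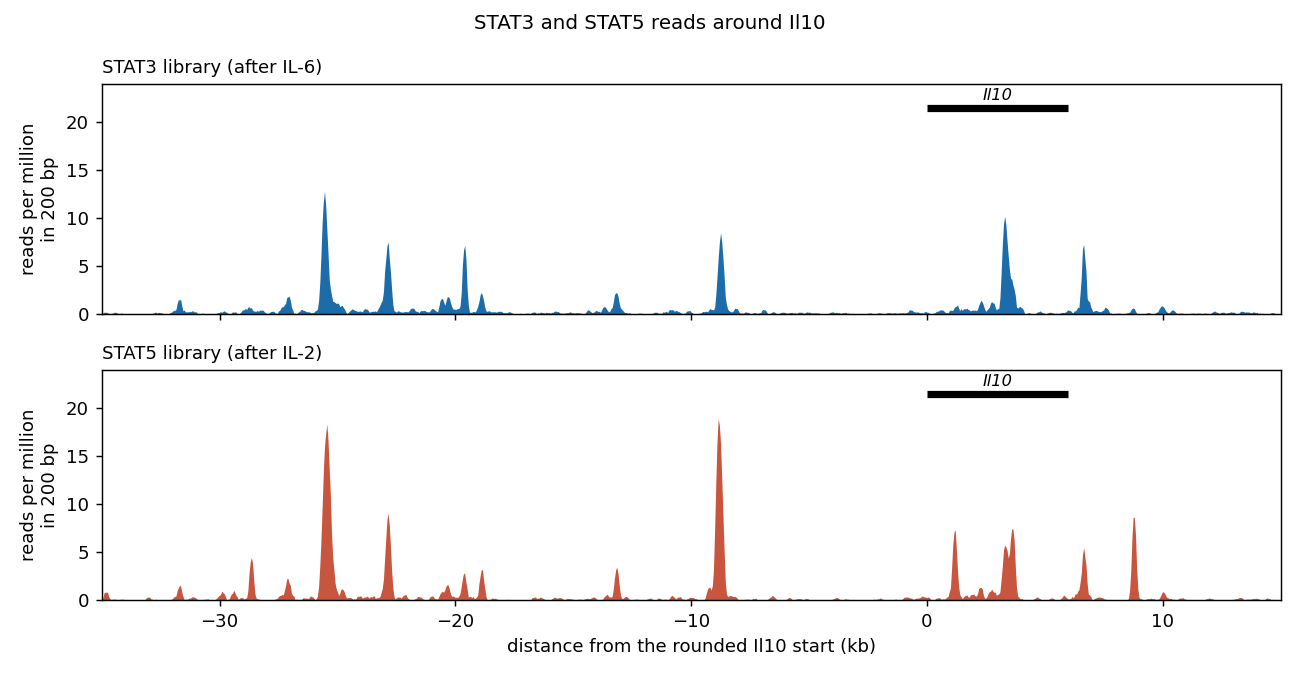
RPM in windows of 200 bp (vertical axis) against distance in kb from the rounded Il10 start (horizontal axis), STAT3 above and STAT5 below, with a black bar over the rounded gene. STAT5 peaks at +1.2 and +8.8 kb have little STAT3 signal above them, while the peaks at +3.3 and +6.7 kb are taller with STAT3 in RPM (the second has a ratio of 0.953 under scaling to bins without a region).

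At the site 3.3 kb past the start the antibodies had their maxima in different windows. The tallest STAT3 window, from 132919201 to 132919400, had 212 STAT3 reads and 103 STAT5 reads. The tallest STAT5 window, 300 bp further on from 132919501 to 132919700, had 76 STAT3 reads and 134 STAT5 reads, a ratio of 0.490 (0.365 to 0.654). Within 1 site the balance thus lay wholly above 1 at one end and wholly below 1 at the other. These windows were picked as each library's maximum, which in itself widens the contrast.

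Beyond these, the ratio was below 1 at each of the 4 sites that remained. The tallest, 30.1 kb past the start from 132945751 to 132946250, had 67 STAT3 reads and 288 STAT5 reads and was called higher with STAT5 (ratio 0.201, 0.152 to 0.263, and 0.124, 0.0939 to 0.163, with the correction for positions taken). At 18.9 kb past the start there were 73 STAT3 reads and 129 STAT5 reads, and the ratio was 0.489 (0.362 to 0.657). Scaled to bins without a region it was 0.353 (0.262 to 0.475), and the site was then called higher with STAT5. At 34.0 and 41.0 kb past the start the levels were lower and closer. The first had 34 STAT3 reads and 39 STAT5 reads, a ratio of 0.753 (0.461 to 1.23). The second had 46 STAT3 reads and 45 STAT5 reads, a ratio of 0.883 (0.573 to 1.36). Both intervals reached past 1. The 11 sites of the cluster outside the naming rule ranged over 13 to 156 STAT3 reads and 18 to 163 STAT5 reads, and those described singly were chosen after their values were seen.

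At the 14 sites with a region of both antibodies, the median fragment position in 400 bp differed by a median of 14.2 bp (1.5 to 63 bp), and by 25 bp or less at 10 sites. One of these 10 is the site 3.3 kb past the Il10 start, where the 400 bp leave out the tallest STAT5 window, 300 bp from that of STAT3. The intervals of the medians were apart at 2 sites. At 25.4 kb before Il10 the STAT3 median lay 74 bp before the site centre (59 to 87 bp) and the STAT5 median 11 bp before it (from 25 bp before to 3 bp after). At 8.8 kb before Il10 the STAT3 median lay 77 bp after the centre (64 to 99 bp) and the STAT5 median 19 bp after it (6 to 31 bp). The displacement ran in opposite directions at these sites, both of which had more STAT5 than STAT3 reads at the common centre.

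Between the sites, read levels also differed from gene to gene. Outside the sites, the Il10 stretch had 19.8 STAT3 and 15.3 STAT5 reads per kb, beside 6.78 and 4.71 in the genome outside sites. The Il24 stretch had 7.80 STAT3 and 10.9 STAT5 reads per kb, the Il20 stretch 5.71 and 4.18, and the Il19 stretch 5.29 and 3.41. Over the cluster, reads outside sites gave a ratio of 1.02 (0.966 to 1.08), and reads in sites 0.469 (0.447 to 0.494). In the genome these ratios were 1.24 (1.24 to 1.24) and 0.619 (0.618 to 0.620). Reads outside the sites include the shoulders of tall sites and places below the call limits.

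**Figure D5:**
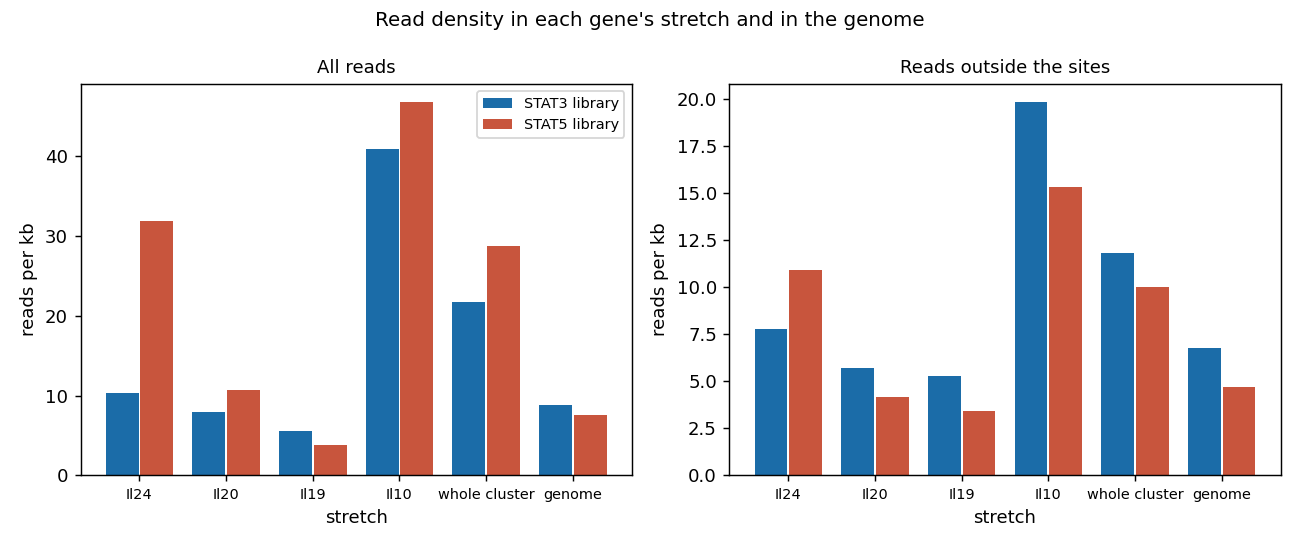
Reads per kb (vertical axes, from 0) in each gene's stretch, the whole cluster and the genome, for all reads on the left and for reads outside the sites on the right, STAT3 left of STAT5 in each pair. The Il10 stretch is the highest in both panels, with 40.8 STAT3 and 46.7 STAT5 reads per kb in all, and the Il19 stretch the lowest.

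All reads of a stretch, in sites or not, gave ratios of 0.282 (0.255 to 0.312) for Il24, 0.644 (0.533 to 0.777) for Il20, 1.27 (1.06 to 1.51) for Il19, which turned to 0.917 (0.770 to 1.09) under scaling to bins without a region, and 0.755 (0.723 to 0.788) for Il10. The ratio of all reads was thus lowest at Il24 and highest at Il19, with Il20 and Il10 between them. At Il19, 304 of 320 STAT3 reads and 196 of 218 STAT5 reads lay outside sites. Their ratio was 1.34 (1.12 to 1.61), beside 1.24 in the genome outside sites. The intervals of Il20 and Il10 overlapped when all reads were counted, but in called sites alone they were apart, at 0.318 (0.233 to 0.428) for Il20 and 0.596 (0.564 to 0.629) for Il10. The Il20 value came from 2 sites, mostly from the one with 35 STAT3 and 91 STAT5 reads in 200 bp. These intervals do not cover the spread between sites. In called sites the Il19 ratio was 0.629 (0.309 to 1.25), from 16 STAT3 reads and 22 STAT5 reads. The nearest sites outside the interval lay 4.9 kb beyond its start, with 28 STAT3 reads and 23 STAT5 reads, and 6.55 kb beyond its end, with 142 and 111 reads.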

How the data were processed

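Reads were aligned to mm9, per the submitters' processing notes. The aligner and any step that removed repeated reads were not given in the sources used here. Each deposited file lists 1 read of 25 nt per line, with start and end counted from 1, and its deposited score column is 0 throughout and was not used. Read 5′ ends were moved 50 bp in the 3′ direction and counted on the autosomes, X and Y in 200 bp windows at steps of 50 bp. Scripts ran in Python 3.11.15 with pandas 2.3.3, scipy 1.17.1, numpy 2.4.6 and matplotlib 3.10.9.

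Windows over the whole genome were tested with a 1-sided Poisson test against whichever was largest of the means over 5 kb, over 10 kb and over the genome. The first pair include the window itself. The p-values were adjusted (Benjamini-Hochberg) over all windows that held a read. The genome-wide mean was taken over 2359993000 bp of 1 kb bins with a read. Called windows within 100 bp were joined, regions with over 80% of summit reads on 1 strand were left out, and regions sharing 1 bp or more were merged into a site centred on the summit of higher RPM. Ratios carry exact conditional (Clopper-Pearson) intervals, and no p was computed between libraries. With the correction for positions taken, these limits were multiplied by the same factor as the ratio and are approximate. The calling and the intervals were tested on simulated data.

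Sites were given to the nearest of the 4 rounded gene positions. The rule for named sites took the 3 sites per gene with the most summed RPM, every site called higher with 1 antibody and the tallest site of each antibody. Members, lists and alternatives were chosen with earlier results of these data known. The 4 genes matched the RefSeq gene table by symbol, and 2 of them the promoter table. No mm9 annotation was used, so the other genes of the pathway are not analysed here. Depth was 20784388 STAT3 and 17963766 STAT5 nuclear reads.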

Additional observations from a re-analysis of the deposited data

How the results depend on the processing

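No paired analysis was possible because each antibody had 1 library; for the same reason no library could be left out. Region and site counts moved by over 1.5 times in these cases. A minimum of 8-fold gave 9 STAT3 and 13 STAT5 regions and 6 shared sites. The genome-wide mean alone gave 32 STAT3 regions and 25 shared sites, with 33 STAT5 regions. Sites higher with STAT3 numbered 1 with the correction for positions taken and 1 with an interval beyond 1.5-fold, and 0 in the main rule and under the other alternatives; with the correction it was the site 19.6 kb before Il10, at 3.08 (2.22 to 4.35). Sites higher with STAT5 stayed within 8 to 13 of the main 11. The shares of all sites are given for the main rule only, so these counts cannot be set against the genome. Scaling to the reads of region-free 10 kb bins multiplied every ratio by 0.723, which gave 0.204 for Il24, 0.466 for Il20, 0.917 for Il19 (now below 1), 0.546 for Il10, 0.472 for the cluster and 0.739 outside its sites; the site 6.7 kb past the Il10 start came to 0.953, below 1. Reads in called sites alone gave 0.117, 0.318, 0.629 (below 1), 0.596 and 0.469 for the same genes in that order and for the cluster. Offsets at shared sites had a median of 50 bp between tallest windows, which move in steps of 50 bp. The site 25.4 kb before Il10 was called higher with STAT5 at 0.346 under the scaling to region-free bins. It was also called at 0.303 with the correction for positions taken. It was not called at 0.552 in 400 bp or at 0.697 with each library's own tallest window. The site 18.9 kb past the Il10 start was called at 0.353 under the scaling to region-free bins. Beyond what each rule fixes, the cause was not tested. Counts of 400 limit the tallest sites, and sites with under 20 reads have wide intervals.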

Other observations

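With the genome-wide mean in place of the local means, further places of the cluster passed the call. There were 10 such STAT3 regions (13 to 39 reads at the tallest window) and 8 such STAT5 regions (14 to 41 reads) that overlap no region of either library under the main rule. Of these, 9 STAT3 and 6 STAT5 regions lay in the Il10 stretch, and 4 of each overlapped a further region of the other antibody. One such place lay before Il10, from 132888501 to 132889150 with 39 STAT3 reads and from 132888651 to 132889150 with 41 STAT5 reads, beside the tall site 25.4 kb before the gene. Another lay from 132895201 to 132895950 with 38 STAT3 reads and from 132895251 to 132895850 with 29 STAT5 reads. Near Il24, a place from 132773551 to 132773850 had 17 STAT3 reads, and from 132773551 to 132774050 it had 27 STAT5 reads. In the Il19 stretch no further region appeared with either antibody.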
